A study of Mus musculus with 6 samples.

Results

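The genes of cholesterol and fatty acid synthesis were followed in 3 mouse embryonic fibroblast (MEF) cell lines by mRNA-seq. The set holds 37 of the 27179 genes in the count tables, named by symbol in 5 groups: 8 genes of the mevalonate and prenyl steps, 12 of the steps from squalene to cholesterol, 5 regulators of the SREBP pathway, 3 genes of sterol transport and 9 of the fatty acid branch. The list was drawn up with results of these libraries known. By its rule a gene was chosen by its symbol and selected on 1 measured value, a total of at least 60 counts over the 6 libraries, and all 37 genes passed. The lowest total was 621 counts, for Abca1, so no member lay near that limit and none was left out.

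The parental line, CPN-/-, carried Cry1-/- and Cry2-/- together with Per1-/- and Per2-/- as well as Nr1d1-/- and Nr1d2-/-, so that all groups shared the loss of these circadian repressors. CPN-/- CRY1 and CPN-/- CRY2 were derived from it and expressed exogenous CRY1 or exogenous CRY2 from a viral promoter, outside the feedback that controls the endogenous genes. Each was grown after viral infection from a colony selected with blasticidin, so that each CRY protein was represented by 1 clone. The paper describes no empty-vector control of CPN-/-, so infection, selection, clone and CRY protein cannot be told apart in comparisons against CPN-/-. Between the 2 CRY lines, clone and CRY protein cannot be told apart. Apart from this selection every line was untreated, grown in serum-containing medium, and had 2 libraries from independent RNA preparations, so that p-values measure the spread between such preparations. In these bulk libraries, fewer cells of a type and less RNA per cell cannot be told apart. Fibroblast markers were abundant, with a summed level of 8932 to 13810 counts per 1000000 counts of the library (CPM), though Thy1 was nearly absent with 25 counts in all.

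Cells make cholesterol from acetyl-CoA through mevalonate, farnesyl diphosphate and squalene, and make fatty acids from the same acetyl-CoA through malonyl-CoA. When membrane sterol is low, the escort protein SCAP carries the SREBP transcription factors from the endoplasmic reticulum to the Golgi, where they are cut free and enter the nucleus to activate both sets of genes. INSIG proteins hold SCAP back when sterol is plentiful, and the Insig1 gene is itself an SREBP target. In promoters of this pathway, SREBP commonly acts together with NF-Y, which binds CCAAT boxes, while CLOCK-BMAL1, the activator that CRY proteins repress, binds E-boxes.

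Promoter sequence was taken from RefSeq for GRCm38.p6, the assembly that mm10 shows, and the table held a promoter for 29 of the 37 members. Fdps, Fdft1, Sqle, Stard4, Npc1, Scd1, Scd2 and Fads1 had no entry. The 220 bases before the start site are shown for 6 members, 5' to 3' on the strand of the gene. They were chosen to show the promoter with a sterol regulatory element (Hmgcs1), an E-box beside a CCAAT box (Insig1, the largest rise in CPN-/- CRY1), CCAAT boxes alone (Idi1 and Mvk), none of these motifs in a gene that rose (Fads2), and the sterol gene that fell (Pmvk). Capitals mark TCACNCCAC (the sterol regulatory element), CACGTG (the E-box) and CCAAT, each read on both strands, so that CCAAT on the other strand appears as ATTGG.
Hmgcs1: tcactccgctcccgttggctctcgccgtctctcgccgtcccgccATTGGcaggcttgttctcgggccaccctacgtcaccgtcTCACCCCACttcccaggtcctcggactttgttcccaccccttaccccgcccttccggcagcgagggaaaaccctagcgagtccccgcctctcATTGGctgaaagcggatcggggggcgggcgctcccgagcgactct
Insig1: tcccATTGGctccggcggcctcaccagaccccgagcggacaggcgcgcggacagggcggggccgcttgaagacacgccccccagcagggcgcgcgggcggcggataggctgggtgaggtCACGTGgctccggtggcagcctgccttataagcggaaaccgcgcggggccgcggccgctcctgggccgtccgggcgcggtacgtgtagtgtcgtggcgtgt
Idi1: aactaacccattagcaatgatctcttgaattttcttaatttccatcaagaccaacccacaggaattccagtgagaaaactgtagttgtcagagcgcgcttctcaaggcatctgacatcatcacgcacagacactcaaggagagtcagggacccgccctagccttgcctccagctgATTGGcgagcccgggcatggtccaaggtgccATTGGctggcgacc
Mvk: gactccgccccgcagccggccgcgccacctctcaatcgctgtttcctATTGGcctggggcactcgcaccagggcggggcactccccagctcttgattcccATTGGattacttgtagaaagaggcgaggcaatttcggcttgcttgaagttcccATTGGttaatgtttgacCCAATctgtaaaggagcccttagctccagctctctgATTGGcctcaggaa
Fads2: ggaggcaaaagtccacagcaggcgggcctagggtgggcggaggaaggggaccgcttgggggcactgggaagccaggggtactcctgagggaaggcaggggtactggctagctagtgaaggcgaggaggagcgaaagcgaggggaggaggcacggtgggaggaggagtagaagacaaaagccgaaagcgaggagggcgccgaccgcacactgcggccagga
Pmvk: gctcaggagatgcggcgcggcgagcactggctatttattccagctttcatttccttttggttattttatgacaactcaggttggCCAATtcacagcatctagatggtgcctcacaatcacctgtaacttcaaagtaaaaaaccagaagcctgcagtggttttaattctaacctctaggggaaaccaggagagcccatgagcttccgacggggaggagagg
The stretches lie at chr13:119690131-119690350, plus strand for Hmgcs1, chr5:28071192-28071411, plus strand for Insig1 and chr13:8885386-8885605, plus strand for Idi1. Those of the other genes lie at chr5:114444049-114444268, plus strand for Mvk, chr19:10101504-10101723, minus strand for Fads2 and chr3:89454321-89454540, plus strand for Pmvk, which has 2 start sites in the table, of which the first is shown. CCAAT was found in 16 of 17 sterol enzyme promoters (94.1%), all except that of Acat2, against 43.3% of the 10411 tested genes with a promoter. In the fatty acid branch it was found in 3 of 6 promoters (50%). The letters TCACNCCAC occurred in 1 member promoter, Hmgcs1, against 1.38% of tested genes. CACGTG occurred in 6 of the 29 (20.7%), those of Insig1, Hsd17b7, Dhcr7, Sc5d, Scap and Abca1, against 11.6%. These windows ran from 250 bases before to 50 after the start, and matches describe letters only.

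Library totals lay between 25957409 and 36106949 counts. In the 2 CPN-/- libraries Cry1 was at 125 and 115 CPM and Cry2 at 136 and 129, so reads were still counted at both deleted genes, and counts do not separate exogenous from endogenous transcripts. Cry1 reached 165 and 189.5 CPM in CPN-/- CRY1, and Cry2 reached 349 and 351 in CPN-/- CRY2, each the highest of the 3 lines. The other Cry gene was below its CPN-/- level, with Cry2 at 50.7 and 51.7 CPM in CPN-/- CRY1 and Cry1 at 51.0 and 48.3 in CPN-/- CRY2. The replicates of CPN-/- stood further apart than the others, with an SD of the log2 difference of 0.44 over tested genes against 0.23 and 0.24, and this difference rose with transcript length (Spearman 0.66 over the 13246 genes with a known length). Among the 37 members the same measure gave 0.86, as the short Fdps (1382 bases) was lower and the long Abca1 (10262 bases) higher in replicate 1 of CPN-/-. In CPN-/- 8 of the 37 differed by more than 0.5 on the log2 scale between replicates, namely Abca1, Fasn, Acaca, Elovl6, Npc1, Srebf2, Hsd17b7 and Fdps. In CPN-/- CRY1, 34 of the 37 were higher in replicate 1, by at most 0.39. For these counts the shares over all tested genes were not determined, so they are not read as traits of the members.

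**Figure D1:**
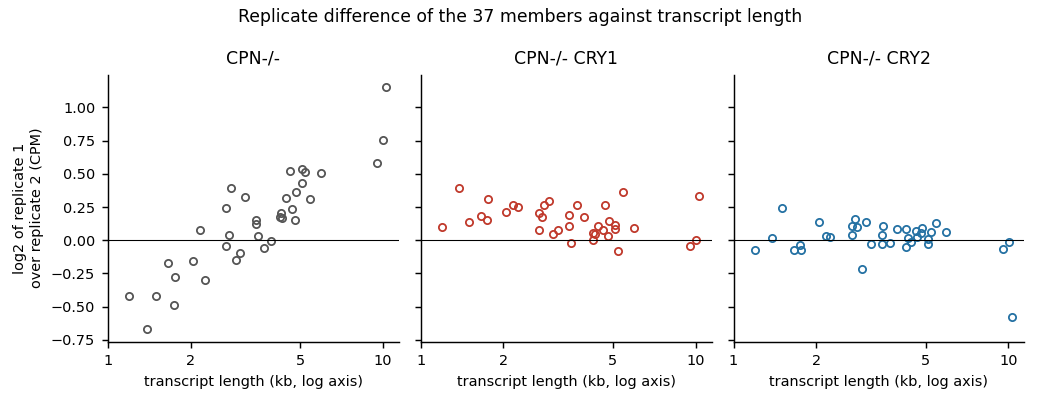
Log2 ratio of replicate 1 to replicate 2 (CPM) for each of the 37 members, against transcript length in kb on a log axis, in the 3 cell lines. In CPN-/- the ratio rises with length, up to 1.16 for Abca1. In CPN-/- CRY1, 34 of the 37 points lie above 0, by at most 0.39, and in CPN-/- CRY2 most lie near 0.

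Against CPN-/-, most sterol enzymes had higher mRNA levels in both CRY lines. In CPN-/- CRY1, 10 of the 20 sterol enzymes rose and 1, Pmvk, fell, where 11.2% of all tested genes rose and 13.1% fell (24.3% in either direction). In CPN-/- CRY2, 8 of the 20 rose and the remaining 12 did not pass the test, where 2.57% of all genes rose and 4.08% fell (6.65% in either direction). With a trend along transcript length removed, the genes called in CPN-/- CRY2 among all those tested were 1487 higher and 1018 lower, in place of 362 and 574. In CPN-/- CRY1 both libraries lay above both CPN-/- libraries for 17 of the 20 and below for 1, where this held for 32.9% and 34% of all genes, and in CPN-/- CRY2 for 14 and 1, where it held for 28% and 27.2%. The 20 had a median log2 fold change of 0.58 with CPN-/- CRY1 and 0.60 with CPN-/- CRY2, beside a median of -0.01 over all tested genes in each. Both comparisons use the same 2 CPN-/- libraries and so are not independent of each other. With 1 library left out, the share of all genes called moved as well. The count of 11 in CPN-/- CRY1 was 17 without replicate 1 and 18 without replicate 2 of CPN-/-, where 63% and 44.1% of all genes were called, and 6 or 7 without a CPN-/- CRY1 library, where 4.74% and 4.64% were. The count of 8 in CPN-/- CRY2 was 15 without either CPN-/- library, where 56.4% and 22.1% of all genes were called, and 0 or 1 without a CPN-/- CRY2 library, where 1.37% and 1.41% were.

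**Figure D2:**
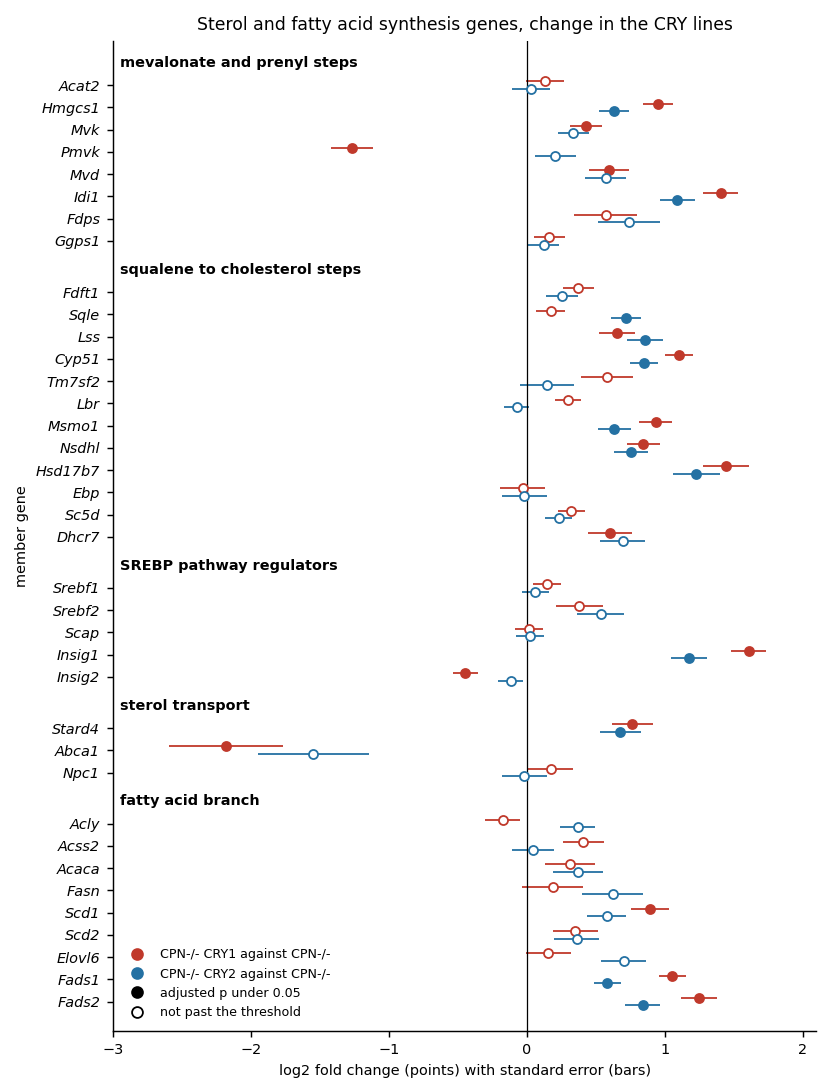
Log2 fold change of each of the 37 members against CPN-/-, with its standard error, in CPN-/- CRY1 (red) and CPN-/- CRY2 (blue). Filled points passed an adjusted p of 0.05, and most sterol enzymes lie to the right of 0, apart from Pmvk at -1.26 in CPN-/- CRY1.

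In the mevalonate and prenyl steps, Hmgcs1, which makes HMG-CoA from acetoacetyl-CoA, was at 56.5 and 50.8 CPM in CPN-/-, at 111 and 97.1 in CPN-/- CRY1 and at 84.3 and 82.2 in CPN-/- CRY2. Both CRY lines lay above CPN-/-, with a log2 fold change of 0.95 ± 0.11 (SE) in CPN-/- CRY1 (edgeR adjusted p = 0.0021) and 0.63 ± 0.11 in CPN-/- CRY2 (adjusted p = 0.019). Idi1, which isomerizes isopentenyl diphosphate, had a low level of 5.09 and 5.45 CPM in the CPN-/- libraries, 14.2 and 13.7 in those of CPN-/- CRY1 and 11.8 and 10.7 in those of CPN-/- CRY2. No libraries of the 3 lines overlapped, and Idi1 rose 2.65-fold in CPN-/- CRY1 (log2 1.41 ± 0.13, adjusted p = 7.7e-04) and 2.13-fold in CPN-/- CRY2 (log2 1.09 ± 0.13, adjusted p = 0.0041).

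Mvk, the mevalonate kinase, was at 32.0 and 35.9 CPM in the CPN-/- libraries, 48.6 and 42.8 in those of CPN-/- CRY1 and 41.8 and 44.0 in those of CPN-/- CRY2. It rose in CPN-/- CRY1 (log2 0.43 ± 0.11, edgeR adjusted p = 0.035), while the difference in CPN-/- CRY2, 0.34 ± 0.11, did not pass the test (adjusted p = 0.14). Mvd, the decarboxylase that yields isopentenyl diphosphate, was at 20.9 and 25.2 CPM in the CPN-/- libraries, 38.5 and 31.1 in those of CPN-/- CRY1 and 33.4 and 35.1 in those of CPN-/- CRY2. The difference passed the test in CPN-/- CRY1 (log2 0.60 ± 0.15, adjusted p = 0.028) and not in CPN-/- CRY2 (0.57 ± 0.15, adjusted p = 0.074), although both CRY lines lay above CPN-/- and differed from each other by 0.02 (adjusted p = 0.94). Both calls, for Mvk and for Mvd, were lost without any 1 of the 4 CRY libraries, with an adjusted p of up to 0.25 for Mvk and 0.20 for Mvd without replicate 1 of CPN-/- CRY1.

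Pmvk, the phosphomevalonate kinase that acts between Mvk and Mvd, went the other way in CPN-/- CRY1. It stood at 27.8 and 37.2 CPM in the CPN-/- libraries, 13.97 and 13.1 in those of CPN-/- CRY1 and 36.5 and 38.5 in those of CPN-/- CRY2. The CPN-/- CRY1 libraries were therefore the lowest, while those of CPN-/- CRY2 overlapped with CPN-/-. Pmvk fell 2.40-fold in CPN-/- CRY1 (log2 -1.26 ± 0.15, edgeR adjusted p = 0.0027) and was at 0.21 ± 0.15 in CPN-/- CRY2 (adjusted p = 0.41). Pmvk lies on chromosome 3, whose genes had a median log2 shift of -0.27 in CPN-/- CRY1, so that its change was larger than that of its chromosome.

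Fdps, the farnesyl diphosphate synthase, was at 33.4 and 53.1 CPM in the CPN-/- libraries, 72.8 and 55.6 in those of CPN-/- CRY1 and 72.7 and 71.8 in those of CPN-/- CRY2. The CPN-/- replicates were so far apart that neither log2 fold change, 0.57 ± 0.23 and 0.74 ± 0.23, passed the test (edgeR adjusted p = 0.11 and 0.12). Several processed pseudogenes nearly identical to Fdps are annotated, so its count is uncertain, as are those of Idi1, Fdft1, Ggps1, Insig1, Elovl6 and Acaca, which also have near-identical copies, and of Tm7sf2, which shares 532 bases with Vps51 on the same strand. Acat2, which makes acetoacetyl-CoA, stayed between 35.4 and 47.1 CPM in all 6 libraries, and Ggps1, which makes geranylgeranyl diphosphate for protein prenylation, between 22.5 and 27.6 CPM. Neither passed the test in either CRY line, and Acat2 shares nearly identical sequence with Acat3 (97.7% over 1477 bases).

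From squalene to cholesterol, 6 of 12 enzymes rose in CPN-/- CRY1 and 6 of 12 rose in CPN-/- CRY2, and the other 6 did not pass the test in each. Cyp51, the lanosterol demethylase, was at 62.0 and 62.1 CPM in the CPN-/- libraries, 141 and 125 in those of CPN-/- CRY1 and 115 and 109 in those of CPN-/- CRY2. It rose 2.15-fold in CPN-/- CRY1 (log2 1.10 ± 0.10, edgeR adjusted p = 9.0e-04) and 1.81-fold in CPN-/- CRY2 (log2 0.85 ± 0.10, adjusted p = 0.0047). Hsd17b7, a sterol ketoreductase of the demethylation steps, was at 18.3 and 12.7 CPM in the CPN-/- libraries, 43.5 and 41.3 in those of CPN-/- CRY1 and 37.5 and 35.6 in those of CPN-/- CRY2. It had the largest rise among the 20 sterol enzymes in both lines, 2.72-fold (log2 1.44 ± 0.17, adjusted p = 0.0023) and 2.35-fold (log2 1.23 ± 0.17, adjusted p = 0.0083).

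Msmo1 and Nsdhl act with Hsd17b7 to remove the methyl groups at the sterol ring. Msmo1 was at 67.6 and 75.2 CPM in the CPN-/- libraries, 146 and 127 in those of CPN-/- CRY1 and 116 and 106 in those of CPN-/- CRY2. Nsdhl was at 18.4 and 17.5 CPM in the CPN-/- libraries, 35.2 and 29.3 in those of CPN-/- CRY1 and 30.7 and 30.0 in those of CPN-/- CRY2. For both genes the 2 CRY lines lay above CPN-/-, by 0.94 ± 0.12 and 0.64 ± 0.12 on the log2 scale for Msmo1 (edgeR adjusted p = 0.0031 and 0.025) and by 0.85 ± 0.12 and 0.76 ± 0.12 for Nsdhl (adjusted p = 0.0048 and 0.014).

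Sqle, the squalene epoxidase and a rate-limiting step of the pathway, differed in its pattern. It stood at 103 and 100.4 CPM in the CPN-/- libraries, 122 and 108 in those of CPN-/- CRY1 and 177 and 158 in those of CPN-/- CRY2. Only the rise in CPN-/- CRY2 passed the test (log2 0.72 ± 0.11, edgeR adjusted p = 0.011), and the value in CPN-/- CRY1 was 0.17 ± 0.11 (adjusted p = 0.27). Sqle lies on chromosome 15, whose genes had a median shift of -0.34 in CPN-/- CRY1, and with this shift removed Sqle passed the test there as well (log2 0.52, adjusted p = 0.020). Lss, which closes squalene epoxide to lanosterol, was at 45.4 and 38.6 CPM in the CPN-/- libraries, 72.2 and 59.9 in those of CPN-/- CRY1 and 76.7 and 75.3 in those of CPN-/- CRY2, and rose by 0.65 ± 0.13 (adjusted p = 0.015) and 0.86 ± 0.13 (adjusted p = 0.012).

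Dhcr7, the 7-dehydrocholesterol reductase at the end of the pathway, was at 19.6 and 14.96 CPM in the CPN-/- libraries, 28.7 and 23.9 in those of CPN-/- CRY1 and 29.0 and 27.1 in those of CPN-/- CRY2. Its log2 fold changes were close in size, 0.60 ± 0.16 and 0.70 ± 0.16, but only that of CPN-/- CRY1 passed the test (edgeR adjusted p = 0.037 and 0.054). Ebp, the sterol isomerase, was at 42.6 and 59.7 CPM in CPN-/- and between 47.4 and 52.7 CPM in the 4 CRY libraries, which all lay within the CPN-/- range. Fdft1 (squalene synthase), Sc5d (the sterol desaturase before Dhcr7) and Tm7sf2 (a sterol reductase, at 3.27 to 5.95 CPM) had log2 fold changes of 0.37, 0.32 and 0.58 with CPN-/- CRY1, and 0.26, 0.23 and 0.15 with CPN-/- CRY2, none past the test. Lbr, which is both a sterol reductase and the receptor that ties chromatin to the nuclear lamina, was at 92.2 and 90.1 CPM in the CPN-/- libraries, 111 and 113 in those of CPN-/- CRY1 and 89.8 and 83.6 in those of CPN-/- CRY2, and did not pass the test against CPN-/- in either line (adjusted p = 0.054 and 0.64).

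**Figure D3:**
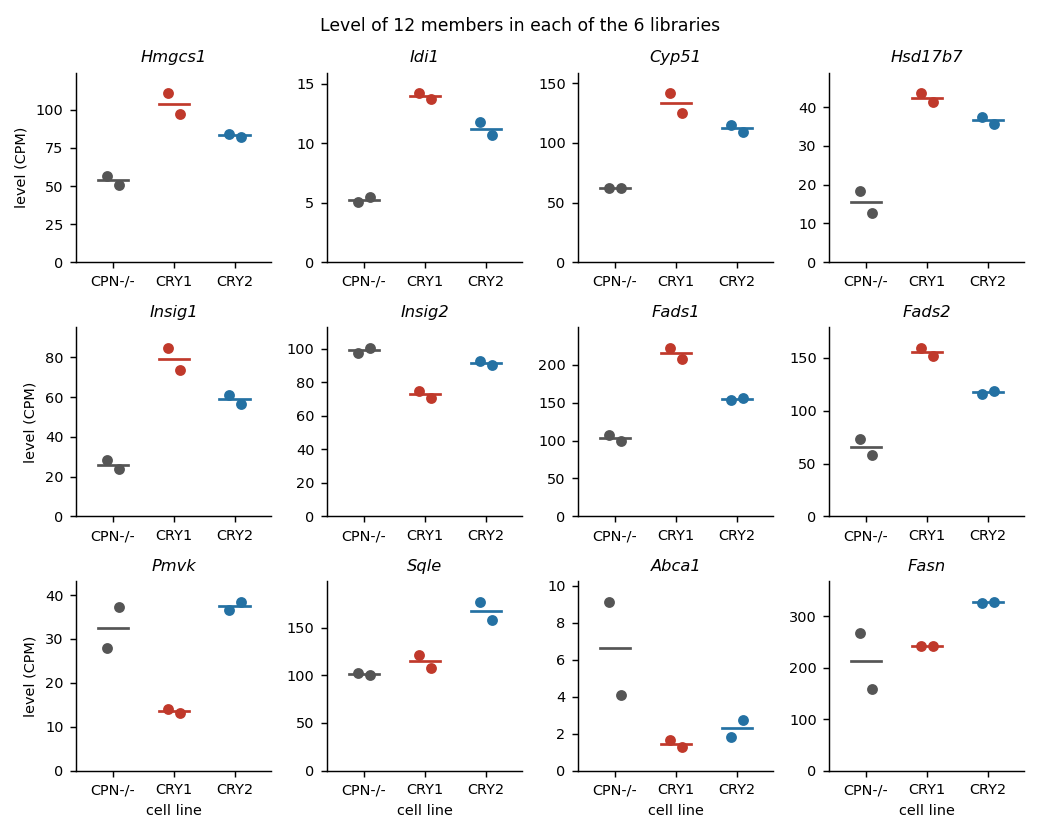
Level of 12 members in CPM in each of the 6 libraries (points), with the mean of each line (horizontal strokes), on axes that start at 0. Hmgcs1, Idi1, Cyp51, Hsd17b7, Insig1, Fads1 and Fads2 are lowest in CPN-/- and highest in CPN-/- CRY1, Pmvk is lowest in CPN-/- CRY1, Sqle and Fasn are highest in CPN-/- CRY2, and the replicates of Abca1 and Fasn in CPN-/- are far apart.

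Among the regulators of the pathway, the 2 INSIG genes moved in opposite directions in CPN-/- CRY1. Insig1, the retention factor that is itself an SREBP target, was at 28.1 and 23.8 CPM in the CPN-/- libraries, 84.9 and 73.6 in those of CPN-/- CRY1 and 61.0 and 56.6 in those of CPN-/- CRY2. It had the largest rise of the 37 members in CPN-/- CRY1, 3.05-fold (log2 1.61 ± 0.13, edgeR adjusted p = 5.6e-04), and rose 2.26-fold in CPN-/- CRY2 (log2 1.18 ± 0.13, adjusted p = 0.0034). Insig2, the partner that is not an SREBP target, was at 97.6 and 101 CPM in the CPN-/- libraries, 74.8 and 71.0 in those of CPN-/- CRY1 and 92.8 and 90.3 in those of CPN-/- CRY2. In CPN-/- CRY1 it fell by 0.44 on the log2 scale (SE 0.09, adjusted p = 0.015, and up to 0.17 without 1 of the 4 CRY libraries) and was at -0.12 ± 0.09 in CPN-/- CRY2 (adjusted p = 0.44).

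Per length of transcript, the ratio of the Insig1 to the Insig2 level was 0.288 and 0.236 in the CPN-/- libraries, 1.14 and 1.04 in those of CPN-/- CRY1 and 0.658 and 0.627 in those of CPN-/- CRY2. The libraries of the 3 lines did not overlap in this ratio, and Insig1 was the more abundant of the pair in CPN-/- CRY1 alone. Srebf1 stayed between 57.0 and 68.2 CPM and Scap between 90.6 and 102 CPM in all 6 libraries, with no call in either line. Srebf2 was at 152 and 105 CPM in the CPN-/- libraries, 173 and 163 in those of CPN-/- CRY1 and 185 and 189 in those of CPN-/- CRY2, above CPN-/- in both lines, but its log2 fold changes of 0.38 ± 0.17 and 0.54 ± 0.17 did not pass the test against the spread in CPN-/- (edgeR adjusted p = 0.14 and 0.12).

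Of the sterol transport genes, Stard4, a cytosolic sterol carrier, was at 35.9 and 26.7 CPM in the CPN-/- libraries, 55.4 and 51.2 in those of CPN-/- CRY1 and 50.3 and 49.9 in those of CPN-/- CRY2. Its log2 rise was 0.77 ± 0.15 in CPN-/- CRY1 (edgeR adjusted p = 0.013) and 0.68 ± 0.15 in CPN-/- CRY2 (adjusted p = 0.045). Abca1, which exports cholesterol to apolipoproteins and is induced by oxysterols through LXR, was at 9.15 and 4.11 CPM in the CPN-/- libraries, 1.63 and 1.30 in those of CPN-/- CRY1 and 1.84 and 2.74 in those of CPN-/- CRY2. All 4 CRY libraries were below CPN-/-, and Abca1 fell 4.53-fold in CPN-/- CRY1 (log2 -2.18 ± 0.41, adjusted p = 0.012). The value of -1.55 ± 0.40 in CPN-/- CRY2 did not pass the test (adjusted p = 0.076), beside a 2-library spread in CPN-/- of 1.16 on the log2 scale. With replicate 1 of CPN-/- left out, Abca1 was at -1.47 in CPN-/- CRY1 and at -0.84 in CPN-/- CRY2, and the call in CPN-/- CRY1 was lost without either CPN-/- CRY1 library (adjusted p of up to 0.11). Npc1, which releases cholesterol from lysosomes, was between 41.2 and 58.6 CPM in all libraries, with no call.

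Of 5 adipocyte markers, Fabp4 was lower in the CRY lines, as Abca1 was. The summed level of the 5 came to 8.74 and 12.1 CPM in the CPN-/- libraries, 0.747 and 0.778 in those of CPN-/- CRY1 and 2.39 and 1.85 in those of CPN-/- CRY2, nearly all of it from Fabp4. Cidec and Lep were at 0 in every library, and Adipoq and Plin1 had 5 and 3 counts in all. Their part in the lipid genes was not tested. Hepatocyte, epithelial and endothelial marker sums stayed below 1 CPM, and 4 macrophage markers summed to 1.92 to 2.33 CPM.

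In the fatty acid branch the genes that passed the test against CPN-/- were 3 desaturases, all on chromosome 19. Scd2, a desaturase on the same chromosome, did not pass it. In CPN-/- CRY1, 3 of the 9 genes rose, Fads1, Fads2 and Scd1, and in CPN-/- CRY2, 2 of the 9 rose, Fads1 and Fads2, beside the 11.2% and 2.57% of all tested genes that rose. None of the 9 fell in either line. The 9 had a median log2 fold change of 0.35 with CPN-/- CRY1 and 0.58 with CPN-/- CRY2, beside the 0.58 and 0.60 of the sterol enzymes, and no difference between the branches was tested. Without replicate 1 of CPN-/- the medians of the 9 became 0.61 and 0.69 with 8 calls in each line, where 63% and 56.4% of all genes were called. Without replicate 2 they became 0.21 and 0.30 with 5 and 6 calls, where 44.1% and 22.1% of all genes were called. Leaving out either CPN-/- CRY2 library left no call in the fatty acid branch of CPN-/- CRY2.

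Fads2, the desaturase that starts the synthesis of long polyunsaturated fatty acids, was at 72.8 and 58.0 CPM in the CPN-/- libraries, 159.6 and 151 in those of CPN-/- CRY1 and 116 and 118 in those of CPN-/- CRY2. It rose 2.38-fold in CPN-/- CRY1 (log2 1.25 ± 0.13, edgeR adjusted p = 0.0014) and 1.79-fold in CPN-/- CRY2 (log2 0.84 ± 0.13, adjusted p = 0.011). The promoter stretch of Fads2 shown above held none of the marked motifs, and a relation of motifs to the changes was not tested. Fads1, the next desaturase of that route and its neighbour on chromosome 19, was at 108 and 98.9 CPM in the CPN-/- libraries, 223 and 207 in those of CPN-/- CRY1 and 153 and 157 in those of CPN-/- CRY2. Its rises were 1.05 ± 0.10 (adjusted p = 9.3e-04) and 0.58 ± 0.10 (adjusted p = 0.017) on the log2 scale. The genes of chromosome 19 were shifted by a median of 0.32 in CPN-/- CRY1 and by -0.16 in CPN-/- CRY2, and both Fads genes kept their calls in both lines with these shifts removed.

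Scd1, a stearoyl-CoA desaturase that makes oleate, was at 127 and 99.1 CPM in the CPN-/- libraries, 221 and 199 in those of CPN-/- CRY1 and 174 and 164 in those of CPN-/- CRY2. Its log2 rise in CPN-/- CRY1 was 0.89 ± 0.14 (edgeR adjusted p = 0.0064), and the value of 0.58 ± 0.14 in CPN-/- CRY2 did not pass the test (adjusted p = 0.060). Scd1 also lies on chromosome 19, with its median shift of 0.32 in CPN-/- CRY1, and over the alternatives its rise in that line ran from 0.57 to 1.085. Scd2, the form that predominated in these cells, was at 580.3 and 469 CPM in the CPN-/- libraries, 754 and 585 in those of CPN-/- CRY1 and 705 and 644 in those of CPN-/- CRY2, with no call. Per length, the ratio of the Scd1 to the Scd2 level was 0.248 and 0.239 in the CPN-/- libraries, 0.331 and 0.385 in those of CPN-/- CRY1 and 0.279 and 0.287 in those of CPN-/- CRY2. Part of the 2 transcripts is nearly identical (95.5% over 623 bases), which can move reads between them.

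The enzymes that build the fatty acid chain did not pass the test against CPN-/-. Acly, Acaca and Fasn lie on chromosome 11 and Elovl6 on chromosome 3, with median shifts of -0.10 and -0.27 in CPN-/- CRY1. The part of chromosome shifts in the contrast with the desaturases was not tested. Acly, which makes cytosolic acetyl-CoA from citrate, was at 292 and 235 CPM in the CPN-/- libraries, 242 and 225 in those of CPN-/- CRY1 and 339 and 343 in those of CPN-/- CRY2. Fasn, the fatty acid synthase, was at 267 and 158 CPM in CPN-/-, 242 in both libraries of CPN-/- CRY1 and 326 and 329 in CPN-/- CRY2. Elovl6, which extends palmitate, was at 64.3 and 45.4 CPM in the CPN-/- libraries, 63.1 and 59.3 in those of CPN-/- CRY1 and 91.4 and 87.4 in those of CPN-/- CRY2. For these 3 genes CPN-/- CRY2 lay above both other lines while CPN-/- CRY1 overlapped with CPN-/-, and the log2 fold changes in CPN-/- CRY2 were 0.37, 0.62 and 0.70 (edgeR adjusted p = 0.14, 0.16 and 0.054). Those of Fasn and Elovl6 were larger than the 0.58 of Fads1, which passed the test there. Acaca, the acetyl-CoA carboxylase, was at 40.6 and 27.2 CPM in CPN-/- and at 41.6 to 44.9 CPM in the 4 CRY libraries, and Acss2, which activates acetate, stayed between 11.6 and 17.9 CPM. Fasn, Acaca and Elovl6 have long transcripts (10050, 9513 and 5951 bases). Their CPN-/- replicates differed by 0.76, 0.58 and 0.50 on the log2 scale.

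Directly compared, 5 of the 37 members differed between the 2 CRY lines, a share near that of all tested genes. Of the 20 sterol enzymes, Pmvk and Sqle were lower and Lbr was higher in CPN-/- CRY1 than in CPN-/- CRY2, where 8.58% of all tested genes were lower and 7.72% higher (16.3% in either direction). Of the 9 fatty acid genes, Acly was lower and Fads1 higher. The remaining 32 members, including all 5 regulators and 3 transport genes, did not pass the test. Among those 8 genes an unadjusted p under 0.05 was reached by 2, and DESeq2 called 2. The median log2 difference, CPN-/- CRY1 minus CPN-/- CRY2, was 0.09 for the sterol enzymes and -0.01 for the fatty acid branch, beside -0.00 for all tested genes.

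With CPN-/- CRY1 set against CPN-/- CRY2, Pmvk was 2.77-fold lower (log2 -1.47 ± 0.15, edgeR adjusted p = 0.0017). Sqle was 1.47-fold lower (-0.55 ± 0.11, adjusted p = 0.017) and Acly 1.46-fold lower (-0.55 ± 0.13, adjusted p = 0.030), while Fads1 was 1.39-fold higher (0.47 ± 0.10, adjusted p = 0.020) and Lbr 1.29-fold higher (0.37 ± 0.09, adjusted p = 0.036). Insig1 (0.43 ± 0.12, adjusted p = 0.061), Insig2 (-0.33 ± 0.09, adjusted p = 0.051) and Elovl6 (-0.55 ± 0.16, adjusted p = 0.066) had libraries of the 2 lines that did not overlap, as 36.4% of all genes did upward and 36.9% downward, and missed the threshold.

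Position moved with part of this comparison. Between the lines, chromosomes 3 and 15 had median shifts of -0.38 and -0.40 and chromosome 19 one of 0.48 on the log2 scale, CPN-/- CRY1 minus CPN-/- CRY2. These chromosomes carry 10 of the 37 members, and 9 of the 10 differed in the direction of their chromosome, all except Scd2. With the median shift of each chromosome in each line removed, Pmvk alone kept its call among the 5, Fads1 was at -0.01, Sqle at -0.15, Acly at -0.43 and Lbr at 0.31. Insig2 then passed the test (-0.39, edgeR adjusted p = 0.039). Pmvk was also the only one of the 5 called with each library left out in turn (adjusted p of up to 0.033), and without replicate 1 or 2 of CPN-/-, 10 sterol enzymes and 7 fatty acid genes were called, where the call rate over all genes was 48.4% or 47.7%.

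**Figure D4:**
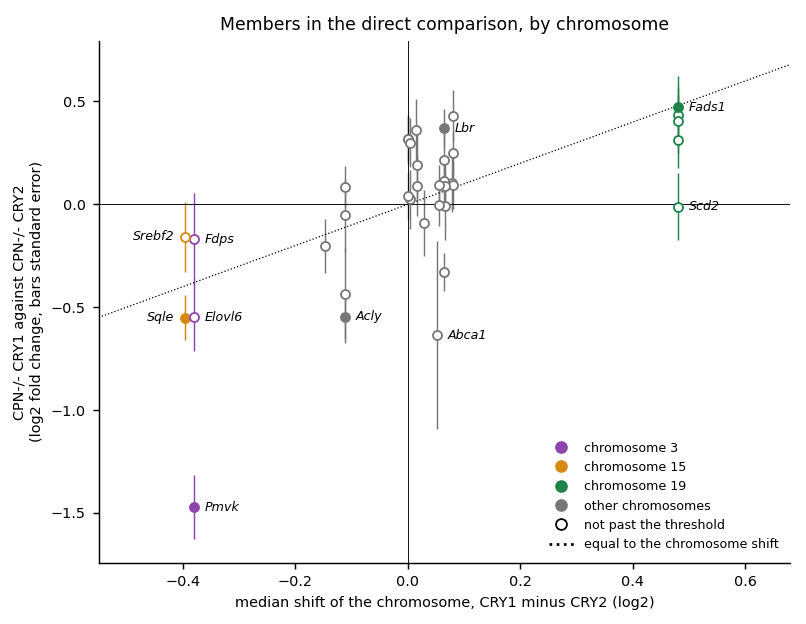
Log2 fold change of each member in CPN-/- CRY1 against CPN-/- CRY2, with its standard error, against the median log2 shift between the 2 lines of all genes on its chromosome. Members on chromosomes 3 and 15 lie to the left and those on chromosome 19 to the right of 0. The dotted line marks equal shift: Fads1 lies on it, Scd2, Fdps and Srebf2 lie off it toward 0, and Pmvk at -1.47 lies far below it.

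Across the 37 members, 18 passed the test in CPN-/- CRY1 and 12 in CPN-/- CRY2, where 24.3% and 6.65% of all tested genes did. With each of the 6 libraries left out in turn, 9 of the 18 kept their call in every fit: Hmgcs1, Pmvk, Idi1, Cyp51, Msmo1, Hsd17b7, Insig1, Fads1 and Fads2 (edgeR adjusted p of up to 0.045). Of the 12 in CPN-/- CRY2, Insig1 alone kept it in every fit (adjusted p of up to 0.047). The others lost it without a library of the CRY line itself, and in part without one of the other CRY line (Mvk, Mvd, Dhcr7 and Insig2 in CPN-/- CRY1, and Hmgcs1, Msmo1, Stard4 and Fads1 in CPN-/- CRY2), while no member lost its call without a CPN-/- library. Leaving out a CRY library leaves that line with 1 library, whose spread is then taken from the other lines. Leaving out a CPN-/- library removes from the spread the replicates that stood furthest apart. More of all genes were then called, so a call kept in those fits says little about its dependence on the CPN-/- libraries. By level per length, Scd2 was the most abundant member in each, at 96.2, 123 and 124 CPM per kb in CPN-/-, CPN-/- CRY1 and CPN-/- CRY2, and Abca1 the least, at 0.646, 0.143 and 0.223. Between these ends the order changed: from CPN-/- to CPN-/- CRY1, Pmvk went from rank 9 to rank 26 of the 37 and Insig2 from rank 4 to rank 16, while Insig1 went from rank 24 to rank 13.

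The summed level of the 20 sterol enzymes came to 811 and 847 CPM in the CPN-/- libraries, 1265 and 1120.0 in those of CPN-/- CRY1 and 1194 and 1144 in those of CPN-/- CRY2. The level summed over the 9 fatty acid genes came to 1564 and 1203 CPM in the CPN-/- libraries, 1964 and 1726 in those of CPN-/- CRY1 and 1959 and 1900.0 in those of CPN-/- CRY2. In both sums all 4 CRY libraries lay above the 2 CPN-/- libraries and the 2 CRY lines overlapped with each other. Scd2, Acly and Fasn, none of them called against CPN-/-, had the highest CPM of the 9 fatty acid genes and weigh most in that sum.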

How the data were processed

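Each library is a stranded, paired-end mRNA-seq library of polyA RNA. Per the labels and the study's methods, the authors used STAR for mapping to mm10 and featureCounts for the gene counts, which were deposited unnormalized. The gene annotation, strand setting and handling of multiply mapped reads are not given in the sources used here, so antisense overlaps and near-identical copies cannot be separated. The counts were tested with edgeR 4.0.16 (robust quasi-likelihood, TMM, default filterByExpr, 14069 genes tested, no covariate, all 6 libraries), with Benjamini-Hochberg adjustment over all of them and a threshold of 0.05. Standard errors are the log2 fold change divided by the root of F. CPM use TMM-scaled totals. Names and positions came from RefSeq, and lengths (known for 94.2% of tested genes), overlaps and copies (BLAST+ 2.17.0) from GENCODE M21. The fit was tried on data simulated without a length trend, for CPN-/- CRY1 against CPN-/-. With 200 of 13862 genes changed by 1.5 on the log2 scale, it recovered 91.5% of them and made 19 false calls. All members were named, and from other lists at most the 2 called genes with the largest change per comparison, of which 1 gene is not reported here. The members and lists were chosen with earlier results of these data known. Alternatives were DESeq2 1.42.0, 3 other scalings, 2 other filters, 4 libraries alone, a replicate block, stricter thresholds, removal of length trends or chromosome shifts, and each library left out.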

Additional observations from a re-analysis of the deposited data

Results flagged for a closer look

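In 5 members the change against CPN-/- differed between the CRY lines by the direct test of CPN-/- CRY1 against CPN-/- CRY2 in edgeR. The log2 differences were -1.47 for Pmvk, -0.55 for Sqle, 0.37 for Lbr, -0.55 for Acly and 0.47 for Fads1. For Pmvk, Lbr and Acly the fitted changes against CPN-/- also had opposite signs in the 2 lines, at -1.26 and 0.21, at 0.30 and -0.07 and at -0.17 and 0.37. Among these changes against CPN-/-, only that of Pmvk in CPN-/- CRY1 passed the test. Of these 5, Pmvk alone stayed past the threshold when chromosome shifts were removed. No explanation of these differences was tested.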

How the results depend on the processing

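The direction and side of the threshold of a member was the same as first fitted in 1653 pairs of a member's comparison and an alternative, while 167 passed the threshold only under the alternative, 128 only at first and 50 turned direction. The cause of these changes was not tested. The count of sterol enzymes called (11, 8 and 3 in CPN-/- CRY1 and CPN-/- CRY2 against CPN-/- and in the direct comparison) became 17, 13 and 5 with the length trend removed, 7, 3 and 1 at an adjusted p under 0.01, and 4, 2 and 1 at a log2 fold change of at least 1. The direct count became 10 from its 4 libraries alone and 1 with chromosome shifts removed. The count of fatty acid genes (3, 2 and 2) became 5, 6 and 6 with the length trend removed. In CPN-/- CRY2 and in the direct comparison it was 4 and 4 without a filter, 4 and 4 with DESeq2, 0 and 7 from 4 libraries, 0 and 0 at either stricter threshold, and 0 in the direct comparison with chromosome shifts removed. The fatty acid median became 0.24 and 0.33 in the CRY lines with the length trend removed and -0.17 directly with chromosome shifts removed.

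Leaving out 1 library gave 6 to 18, 0 to 15 and 1 to 10 sterol enzymes and 2 to 8, 0 to 8 and 0 to 7 fatty acid genes, with sterol medians of 0.39 to 0.69, 0.44 to 0.60 and -0.01 to 0.20 and fatty acid medians of 0.21 to 0.61, 0.30 to 0.69 and -0.032 to 0.16. Deviations of same-numbered libraries had correlations of -0.08, 0.14 and -0.03 between the lines. With 2 libraries a line and a length trend between those of CPN-/-, these values cannot decide whether the numbers pair preparations. The fit with a replicate block called 11, 9 and 2 sterol enzymes and 3, 4 and 3 fatty acid genes.

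Members that turned direction were not called at first, except Fads1. With the length trend removed, Scap was at -0.039 and Fasn at -0.078 in CPN-/- CRY1, Ebp at 0.19 in CPN-/- CRY1, 0.18 in CPN-/- CRY2 and 0.0092 directly, and Scap at -0.011 in CPN-/- CRY2. Scap in CPN-/- CRY1 was at -0.00047 with library sizes, -0.0084 with upper quartiles and -0.0071 with chromosome shifts removed, and directly at 0.0019 with DESeq2 size factors, 0.0041 without a filter and 0.0019 in DESeq2. With chromosome shifts removed the direct differences became 0.21 for Fdps, -0.044 for Tm7sf2, 0.24 for Srebf2, 0.058 for Acaca, -0.17 for Scd1, -0.0081 for Fads1 and -0.072 for Fads2. With 1 library left out, the log2 fold change in CPN-/- CRY1 ran from -0.0052 to 0.30 for Acat2, -0.25 to 0.24 for Ebp, -0.064 to 0.43 for Elovl6, -0.13 to 0.61 for Fasn, -0.050 to 0.45 for Npc1 and -0.060 to 0.11 for Scap. In CPN-/- CRY2 it ran from -0.11 to 0.20 for Acat2, -0.055 to 0.16 for Acss2, -0.24 to 0.25 for Ebp, -0.24 to 0.26 for Npc1, -0.054 to 0.11 for Scap, -0.011 to 0.15 for Srebf1 and -0.057 to 0.37 for Tm7sf2. Directly it ran from -0.030 to 0.23 for Acat2, -0.23 to 0.036 for Dhcr7, -0.089 to 0.066 for Ebp, -0.023 to 0.24 for Fdft1, -0.38 to 0.013 for Fdps, -0.0047 to 0.086 for Ggps1, -0.14 to 0.17 for Mvd, -0.0021 to 0.18 for Mvk, -0.052 to 0.22 for Nsdhl, -0.031 to 0.019 for Scap and -0.21 to 0.16 for Scd2.

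Over all genes, the 3423, 936 and 2293 called became 5642, 2505 and 4536 with the length trend removed, 1798, 473 and 6845 from 4 libraries, 1184, 363 and 854 at an adjusted p under 0.01, 1089, 526 and 828 at a log2 fold change of at least 1, and 663 to 8981, 199 to 8046 and 475 to 6897 with 1 library left out. In CPN-/- CRY2, 583 were called with at least 10 counts in every library, and in the direct comparison 1468 with chromosome shifts removed. Each line had 2 libraries, and every member had 621 counts or more over the 6.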

Other observations

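Genes around the pathway were counted from lists drawn up with the members, and their counts are read against the 24.3%, 6.65% and 16.3% of all tested genes called in CPN-/- CRY1, in CPN-/- CRY2 and in the direct comparison. Of 15 further genes of sterol synthesis, sensing and SREBP cleavage, 2 were higher and 2 lower in CPN-/- CRY1, a share near that of all genes. Osbp, an oxysterol-binding protein, had a log2 rise of 0.59 ± 0.10 there (edgeR adjusted p = 0.0083). For CPN-/- CRY2 edgeR called 0 of the 15, with 2 at an unadjusted p under 0.05 and 1 called by DESeq2. Directly compared, 2 were higher and 1 lower in CPN-/- CRY1, with Rnf139, a sterol-regulated ubiquitin ligase, at -0.68. Rnf139 lies on chromosome 15, with a median shift of -0.40 between the CRY lines, and Osbp on chromosome 19, with 0.48. Gpam and Cpt1a, given below, also lie on chromosome 19, and Hadh and Nceh1 on chromosome 3, with -0.38. Each differed directly in the direction of its chromosome, and values with these shifts removed are not given for these genes.

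Of 26 listed genes of further fatty acid and glycerolipid synthesis 25 were tested, and 6 rose and 5 fell in CPN-/- CRY1, while 2 rose and 2 fell in CPN-/- CRY2, beside 24.3% and 6.65% of all genes called in either direction. Dgat2, which makes triacylglycerol, was at 25.8 and 25.9 CPM in the CPN-/- libraries, 7.03 and 7.39 in those of CPN-/- CRY1 and 9.44 and 10.6 in those of CPN-/- CRY2, and fell by 1.84 and 1.37 on the log2 scale (edgeR adjusted p = 2.8e-04 and 0.0012). Lpin1, a phosphatidate phosphatase, rose by 0.96 ± 0.20 in CPN-/- CRY2 (adjusted p = 0.039). Elovl7, an elongase, was at 6.38 and 6.98 CPM in the CPN-/- libraries, 3.68 and 2.50 in those of CPN-/- CRY1 and 11.8 and 10.6 in those of CPN-/- CRY2, and had a direct log2 difference of -1.85 ± 0.20 (adjusted p = 0.0018). The direct comparison of the 25 gave 3 lower and 2 higher, among them Gpam, the acyltransferase that starts glycerolipid synthesis (0.77 ± 0.14, adjusted p = 0.014).

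Of 16 fatty acid oxidation genes, 1 rose and 2 fell in CPN-/- CRY1, a share below the 24.3% of all genes. Cpt1a, which carries fatty acids into mitochondria, rose by 0.97 ± 0.15 (edgeR adjusted p = 0.0058) and Hadh, a dehydrogenase of the cycle, fell by 0.66 (adjusted p = 0.0080). For CPN-/- CRY2 edgeR called 0 of the 16, with 3 at an unadjusted p under 0.05 and 1 called by DESeq2, and directly compared 2 of the 16 were called, Cpt1a at 0.94 and Hadh at -0.58. Of 11 genes that use prenyl groups, Coq2 of ubiquinone synthesis was the 1 called in each CRY line, at -1.01 and -0.60, and edgeR called 0 directly, with 2 at an unadjusted p under 0.05 and 0 by DESeq2. Of 12 genes of sterol efflux, esterification and transport 9 were tested, and the calls were Stard5 at -0.73 in CPN-/- CRY1, Nceh1 at 0.53 in CPN-/- CRY2 and 3 in the direct comparison, including Nceh1 at -0.52 and Stard5 at -0.47.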
